A study of Mus musculus with 6 samples.

Results

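The potassium channel genes are described here in sorted epidermis of mouse back skin, taken at postnatal day 0. They were chosen by name alone, as the gene symbols that begin with Kcn, go on with lower-case letters and end in a number, with Kcnq1 left out. This rule found 91 of the 24453 symbols in the count files. RNA sequencing covered 3 libraries labelled Ring1a-/- Ring1b-/- (double knockout) and 3 labelled control. Cells with EpCAM, Sca1 and high α6-integrin on their surface were sorted as interfollicular epidermis, which enriches for its progenitors. The genes Ring1 and Rnf2 encode Ring1a and Ring1b, the ubiquitin ligases of Polycomb repressive complex 1 (PRC1), whose part in skin epithelium the title of the series names as its subject. The labels give the control genotype only as control, and the sources used here name no Cre driver, strain or sex and do not say whether each library came from 1 animal.

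Potassium channels let potassium ions leave or enter cells and so set the membrane voltage. Voltage-gated channels open when the membrane depolarises, inward rectifiers carry current best near the resting voltage, two-pore channels give a steady leak, and calcium-activated channels respond to calcium inside the cell. The pore-forming subunits assemble with one another and with accessory subunits, so the partners present decide what a channel does. Many of these genes are best known from neurons and muscle, while the inward rectifiers Kcnj15 and Kcnj16 are known from epithelia such as the kidney.

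K1, K2 and K3 stand for knockout-labelled replicates 1 to 3, and C1, C2 and C3 for control-labelled replicates 1 to 3. Total counts ranged from 18951665 to 31187270 per library. Levels are CPM, counts over the library size after edgeR's TMM scaling, and 0 counts allow a true count of up to 3, or 0.0975 to 0.154 CPM. Such limits and the intervals below cover counting error only, and p-values rest on the spread between these libraries alone, which may be technical. The targeted gene Ring1 had 1.66, 5.20 and 14.2 CPM in K1, K2 and K3, against 30.9, 17.1 and 3.90 CPM in C1, C2 and C3, so K3 and C3 go against their labels. On the first principal component of all genes (56.7% of the variance) K1, K2 and K3 lay at 93.5, 68.4 and 57.8, and C1, C2 and C3 at -84.6, -64 and -71, so over all genes each library lay with its labelled group. Each direction below is therefore that of the libraries as labelled. Rnf2 had 55.4 to 64.1 CPM in the knockout-labelled and 43.2 to 63.2 CPM in the control-labelled libraries, and since the sources used here do not give the deleted part, it checks no label. The markers of the sort (Epcam, Itga6, Ly6a, Krt5 and Krt14) were present in every library, and none of the 5 was called. Epcam had 381, 216 and 207 CPM in K1, K2 and K3, against 168, 131 and 116 CPM in C1, C2 and C3, without overlap (1.94-fold higher, edgeR adjusted p = 0.0598).

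More potassium channel genes were called higher than lower. Of the 91 members 50 had enough counts to be tested, and 19 of these were higher, 3 were lower and 28 did not pass (edgeR quasi-likelihood test, Benjamini-Hochberg adjusted p under 0.05 over all 14890 genes tested). Across all genes tested, 10.2% were called, 7.17% higher and 2.98% lower, while 44.0% of the tested potassium channel genes were called. Of the tested members 7 had fewer than 10 counts in every control-labelled library and 2 in every knockout-labelled one, so they passed the count filter through the other group alone, and all 7 were called higher. The 7 were Kcnb2, Kcng1, Kcnip1, Kcnj11, Kcnj4, Kcnmb4 and Kcnt1. This share and the median below are therefore no measure of all 91 members. The groups did not overlap in 30 tested members, 25 of them above and 5 below in the knockout-labelled libraries, beside 32.4% of all genes tested. The median log2 fold change of the tested members was 1.35, against 0.00 for all genes tested. The tested members had a median of 1.19 CPM in the control-labelled libraries, far below the median of all genes tested. Comparisons with all genes tested, here and below, thus set unlike levels side by side, and genes of like level were not compared. A member near 0 in the control-labelled libraries can hardly be called lower, which limits what the few lower calls show in any class. When the GC content and length of each gene's longest transcript entered as an offset, 60.3% of all called genes were higher, against 70.6% without it, and 15 members were higher and 3 lower. Single libraries mattered, with 12 members higher when K2 was left out and 11 when either C3 or K3 was left out. In these tests 2 members were lower without C1 or K2 and 1 without C3. With replicates 1 and 2 of each group alone, 7 members were higher and 2 lower, and with the level of Xist, the RNA of X inactivation, as a covariate 11 were higher and 3 lower. The sex-linked transcripts differed between libraries. Xist had 6130, 4740 and 4.48 CPM in K1, K2 and K3 and 10.5, 6.91 and 1760 CPM in C1, C2 and C3. The Y-linked Ddx3y had 0.0346, 0.206 and 76.2 CPM in K1, K2 and K3 and 91.2, 102 and 59.7 CPM in C1, C2 and C3. K1 and K2 were thus high in Xist alone, K3, C1 and C2 in Ddx3y alone, and C3 in both. With replicates 1 and 2 alone the labels therefore cannot be told apart from the sex-linked transcripts. Of the 22 called members 11 were called whichever library was left out, among them Kcna1, Kcnd3, Kcng1, Kcnh2, Kcnip1, Kcnj16, Kcnj4, Kcnma1 and Kcnq5. Of these 11, 3 missed the threshold with replicates 1 and 2 alone, Kcng1 (0.0567) and Kcnh2 (0.0866, edgeR adjusted p) among them.

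**Figure D1:**
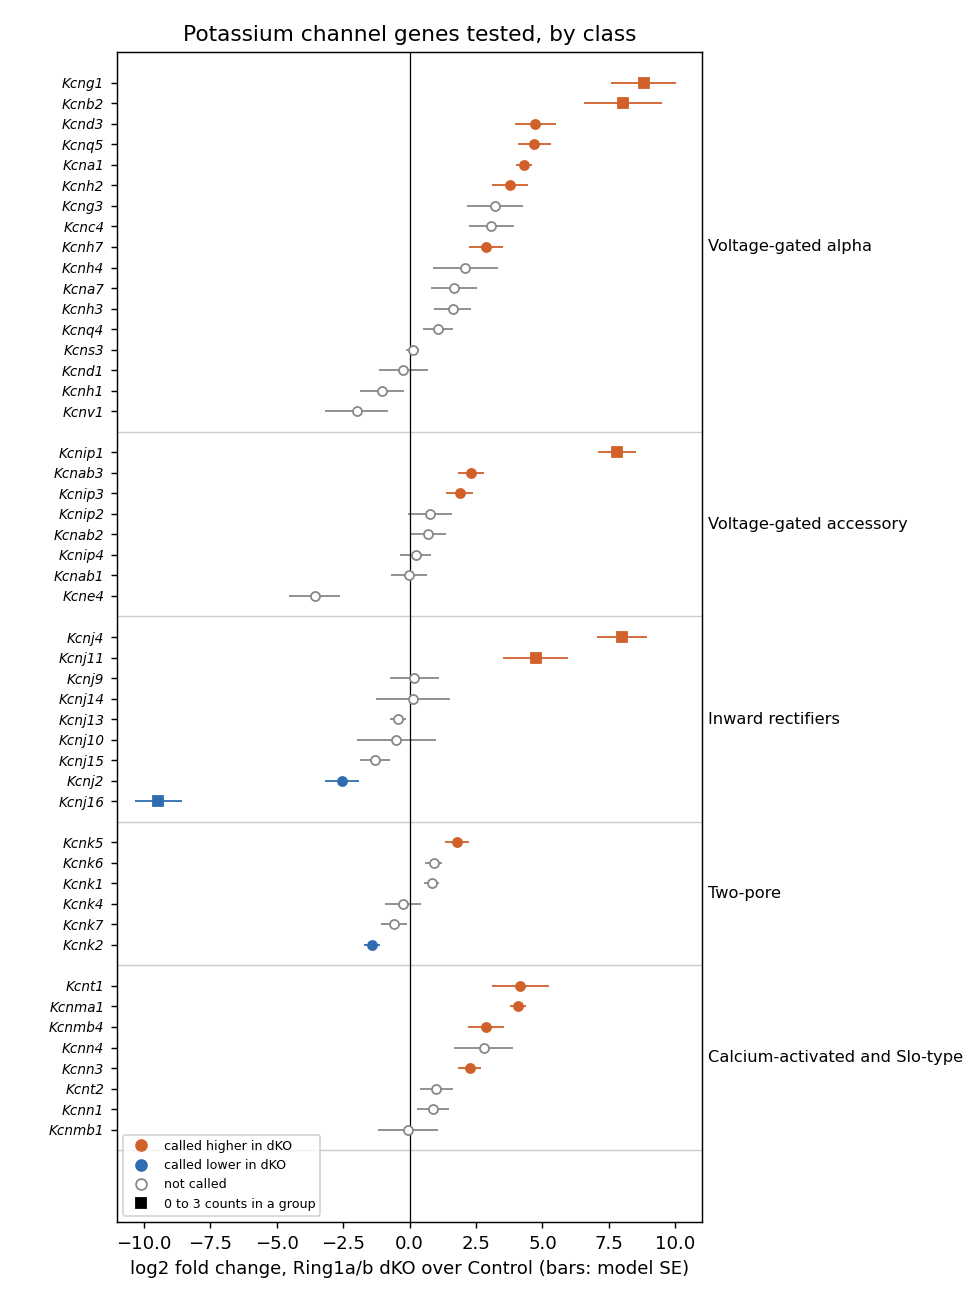
Log2 fold change (horizontal axis) of 48 of the 50 tested potassium channel genes, knockout-labelled over control-labelled libraries, with the model's SE as bars and genes grouped by class. Filled orange and blue symbols are genes called higher and lower, open grey ones were not called, and squares mark genes with 0 to 3 counts in a whole group, whose fitted value is no bound. Higher genes lie in every class, and the 3 lower genes are 2 inward rectifiers and 1 two-pore channel.

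The voltage-gated alpha subunits, which form the pore, are the class with the most members. Of 39 listed 19 were tested, 9 were higher, 0 were lower and 10 did not pass, with a median log2 fold change of 2.87. The higher genes Kcnb2 and Kcng1 passed the count filter through the knockout-labelled libraries alone. In 13 of the 19 every knockout-labelled library lay above every control-labelled one, beside 17.6% of all genes tested in that direction. At an unadjusted p under 0.05 edgeR also found 0 lower, and DESeq2 and limma-voom called 0 lower.

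Kcna1 encodes Kv1.1, a Shaker-type delayed rectifier known from axons (chromosome 6, 126640397 to 126646384, minus strand, GRCm38). It had 56.7, 85.0 and 90.4 CPM in K1, K2 and K3, against 3.71, 5.16 and 2.94 CPM in C1, C2 and C3. The groups were far apart, with the lowest knockout-labelled library above the highest control-labelled one. The fold change was 19.7 (log2 4.30 ± 0.31, SE, n = 3 libraries per group, edgeR adjusted p = 3.53e-04). Its neighbours on chromosome 6 were counted in few libraries. Kcna5, which begins a gap of 104984 bases before Kcna1, had 0, 4 and 20 counts in K1, K2 and K3 and 0, 0 and 4 in C1, C2 and C3. Kcna6, a gap of 61944 bases after it, had 80, 0 and 0 counts in K1, K2 and K3 and 29, 0 and 0 in C1, C2 and C3. Both failed the count filter, which asks for enough counts in 3 libraries.

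Kv2 channels are delayed rectifiers that also take up electrically silent subunits of the Kcng, Kcns, Kcnf and Kcnv families. Kcnb2 (Kv2.2) had 62, 11 and 30 counts in K1, K2 and K3 and 0 in C1, C2 and C3, at least 34.2-fold higher against 3 counts over the group (edgeR adjusted p = 0.0193). The silent subunit Kcng1 had 81, 31 and 60 counts in K1, K2 and K3 and 0 in C1, C2 and C3, at least 57.1-fold higher (edgeR adjusted p = 0.00707). Both genes were thus at 0 in the control-labelled libraries and counted in every knockout-labelled one. A further silent subunit, Kcng3, had 4.81, 5.87 and 4.58 CPM in K1, K2 and K3, against 0, 0.350 and 1.27 CPM in C1, C2 and C3, without overlap but short of the threshold (edgeR adjusted p = 0.0954). DESeq2 (adjusted p = 0.00394) and limma-voom (0.0410) called Kcng3 higher. Kcns3, a silent subunit with a mean of 3.98 CPM per kb of exon in knockout-labelled and 3.66 CPM per kb in control-labelled libraries, had 11.5, 12.8 and 13.5 CPM in K1, K2 and K3 and 10.4, 11.3 and 13.1 CPM in C1, C2 and C3. The Kcns3 groups overlapped, and its log2 fold change was 0.12 ± 0.25 (SE, edgeR adjusted p = 0.825). The Kcnb2 call was lost without C3, K1 or K3 (edgeR adjusted p = 0.0516 to 0.0581).

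Kcnd3 encodes Kv4.3, a rapidly inactivating channel of heart and brain. It had 25.9, 13.7 and 11.5 CPM in K1, K2 and K3, against 1.43, 0.350 and 0.137 CPM in C1, C2 and C3. The fold change was 26.5 (log2 4.73 ± 0.78, SE, edgeR adjusted p = 0.00710). Kcnc4 (Kv3.4), a fast channel of neurons, had 15.7, 4.79 and 7.86 CPM in K1, K2 and K3 and 0.150, 2.27 and 0.958 CPM in C1, C2 and C3, without overlap, and missed the threshold (edgeR adjusted p = 0.0542). Kcnc4 was called higher by DESeq2 (adjusted p = 5.22e-04) and limma-voom (0.0445), and by edgeR without a count filter (0.0229) and without C2 (0.0343).

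Kcnq5, a subunit of the slow M current that damps neuronal firing, had 6.82, 12.4 and 12.6 CPM in K1, K2 and K3, against 0.188, 0.262 and 0.753 CPM in C1, C2 and C3 (25.8-fold higher, edgeR adjusted p = 0.00282). Kcnh2, the ERG channel that repolarises the heart, had 7.34, 5.61 and 9.0 CPM in K1, K2 and K3, against 1.01, 0.393 and 0.171 CPM in C1, C2 and C3 (13.8-fold higher, edgeR adjusted p = 0.00955). Its neuronal relative Kcnh7 had 5.50, 10.1 and 11.1 CPM in K1, K2 and K3, against 1.99, 0.306 and 1.33 CPM in C1, C2 and C3 (7.29-fold higher, edgeR adjusted p = 0.0265). For each of these 3 genes no control-labelled library reached the lowest knockout-labelled one. The Kcnh7 call was lost without C3, K2 or K3 (edgeR adjusted p = 0.0838 to 0.0846). Exons of Kcnh7 share 696 bases with Gca on the other strand, and the strand of counting is not stated in the sources used here. Gca itself had 4.64, 12.2 and 10.7 CPM in K1, K2 and K3 and 12, 0.743 and 5.47 CPM in C1, C2 and C3, with overlapping groups (edgeR adjusted p = 0.713).

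**Figure D2:**
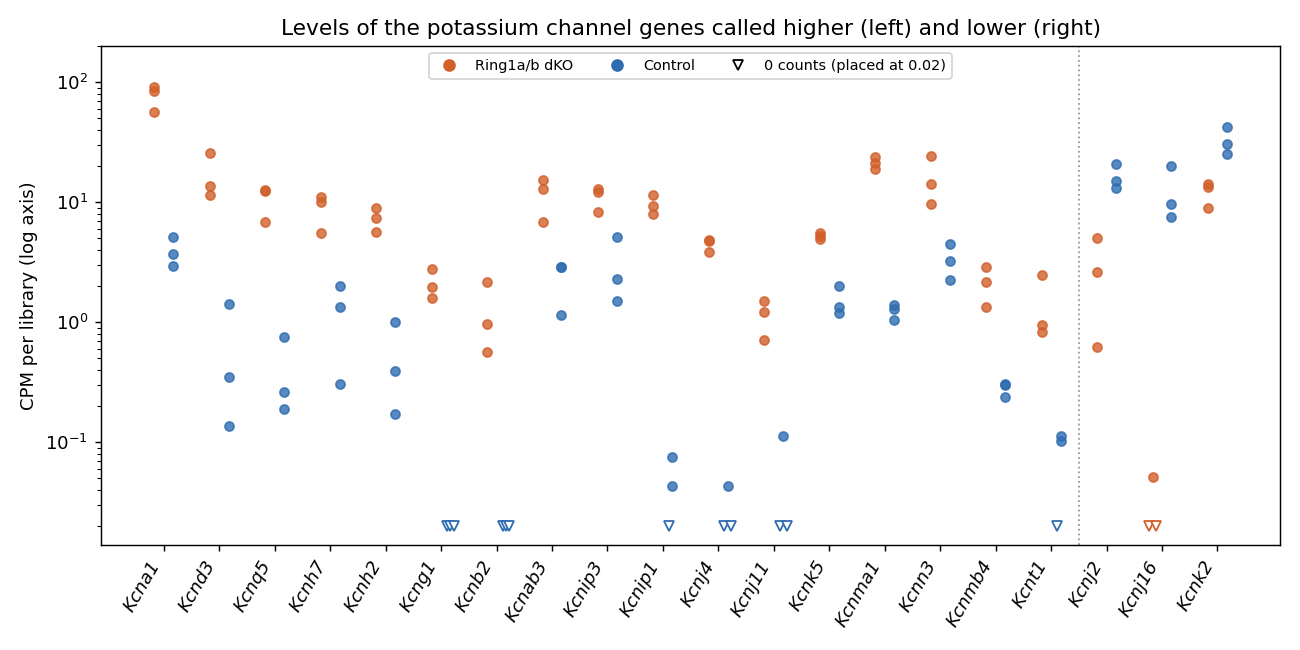
CPM in each library (vertical log axis) of 20 of the 22 called potassium channel genes, with knockout-labelled libraries in orange on the left and control-labelled ones in blue on the right of each gene. Open triangles mark 0 counts. In all 20 plotted genes the groups do not overlap, for example in Kcna1 with 56.7 to 90.4 CPM in knockout-labelled and 2.94 to 5.16 CPM in control-labelled libraries.

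Accessory subunits of voltage-gated channels changed in part. Of 11 listed 8 were tested, 3 were higher, 0 were lower and 5 did not pass, with a median log2 fold change of 0.72. The higher gene Kcnip1 passed the count filter through the knockout-labelled libraries alone. At an unadjusted p under 0.05 edgeR found 1 lower, DESeq2 called 1 lower and limma-voom 0. Kcnip1 and Kcnip3 encode calcium-binding partners (KChIP1 and KChIP3) of Kv4 channels such as that of Kcnd3. Kcnip1 had 9.38, 11.5 and 7.96 CPM in K1, K2 and K3, against 2, 1 and 0 counts in C1, C2 and C3, a ratio of 245 (95% interval 83.6 to 1190 for counting, edgeR adjusted p = 7.48e-04). Kcnip3 had 8.31, 12.2 and 12.9 CPM in K1, K2 and K3, against 2.29, 1.49 and 5.17 CPM in C1, C2 and C3 (3.72-fold higher, edgeR adjusted p = 0.0450). Kcnip2 and Kcnip4, the other KChIP genes, had overlapping groups and log2 fold changes of 0.76 and 0.23 (edgeR adjusted p = 0.631 and 0.857). Kcnab3, a beta subunit of Shaker-type channels such as that of Kcna1, had 6.82, 15.2 and 12.9 CPM in K1, K2 and K3, against 1.16, 2.88 and 2.91 CPM in C1, C2 and C3 (5.02-fold higher, edgeR adjusted p = 0.0189). Its relatives Kcnab1 and Kcnab2 overlapped between groups, at log2 fold changes of -0.02 and 0.69 (edgeR adjusted p = 0.991 and 0.598). Kcne4, which inhibits several voltage-gated channels, ran the other way, with 1.28, 0.309 and 0.0650 CPM in K1, K2 and K3, against 6.53, 2.67 and 10.7 CPM in C1, C2 and C3. Its groups did not overlap, and its log2 fold change of -3.57 ± 0.96 (SE) missed the threshold (edgeR adjusted p = 0.0507). Kcne4 passed without C2 (0.0491) and without K1 (0.0175, edgeR adjusted p). The Kcnip3 call was lost without any library but C3 (edgeR adjusted p = 0.0518 to 0.127), and the Kcnab3 call without C3, K2 or K3 (0.0508 to 0.0800). With 1 library left out 1 or 2 accessory genes were higher, 1 of them without K2 or K3.

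Inward rectifiers moved in both directions. Of 15 listed 9 were tested, 2 were higher, 2 were lower and 5 did not pass, with a median log2 fold change of -0.43. Both higher genes, Kcnj4 and Kcnj11, passed the count filter through the knockout-labelled libraries alone. The lower gene Kcnj16 passed it through the control-labelled ones alone. Kcnj15 (Kir4.2) had the highest level per length of all members in the control-labelled libraries, a mean of 9.79 CPM per kb of exon in knockout-labelled and 24.1 CPM per kb in control-labelled libraries. It had 14.3, 85.4 and 85.7 CPM in K1, K2 and K3, against 190.0, 161 and 105 CPM in C1, C2 and C3. K1 stood far below K2 and K3, and no knockout-labelled library reached a control-labelled one. The log2 fold change of -1.30 ± 0.56 (SE) did not pass (edgeR adjusted p = 0.201), and it was -0.83 without K1 (edgeR adjusted p = 0.0922).

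Kcnj16 encodes Kir5.1, which forms channels together with Kir4.1 or Kir4.2. It had 0, 1 and 0 counts in K1, K2 and K3, against 201, 458 and 280 counts in C1, C2 and C3 (edgeR adjusted p = 8.35e-04). The counts of the control-labelled over the knockout-labelled libraries gave a ratio of 943 (95% interval 169 to 37300 for counting). Kcnj10 (Kir4.1) was low in all libraries, at 0.0346, 0 and 1.56 CPM in K1, K2 and K3 and 0.113, 1.18 and 1.03 CPM in C1, C2 and C3. Its groups overlapped. Kcnj2 (Kir2.1), a channel of muscle and heart that sets the resting voltage, lies 38195 bases from Kcnj16 on chromosome 11 (111066164 to 111076821, plus strand, against 110968033 to 111027968 for Kcnj16, GRCm38). Kcnj2 had 2.60, 0.618 and 5.04 CPM in K1, K2 and K3, against 15.0, 20.7 and 13 CPM in C1, C2 and C3. Its log2 fold change was -2.54 ± 0.63 (SE, edgeR adjusted p = 0.0359). Both neighbours were thus lower without overlap. Of the 10 pairs of members that lie within 200000 bases of each other, this was the one in which both genes were called. Both genes were also tested in the pairs Kcnj9 with Kcnj10 and Kcnip1 with Kcnmb1. In every other pair at least 1 gene was not tested, so those pairs could not have had both called.

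The higher inward rectifiers came from near silence. Kcnj4 (Kir2.3, of brain and heart) had 137, 75 and 150 counts in K1, K2 and K3, against 0, 1 and 0 counts in C1, C2 and C3, a ratio of 361 (95% interval 64.3 to 14300 for counting, edgeR adjusted p = 0.00164). Kcnj11 (Kir6.2), the pore of the ATP-sensitive channel that couples metabolism to voltage in pancreatic beta cells, had 35, 29 and 22 counts in K1, K2 and K3, against 3, 0 and 0 counts in C1, C2 and C3, a ratio of 28.6 (95% interval 9.45 to 141, edgeR adjusted p = 0.0433). Abcc8, which encodes the sulfonylurea receptor SUR1 that completes this channel, is no Kcn gene but lies 3758 bases from Kcnj11 on chromosome 7. Abcc8 had 44.8, 24.3 and 28.6 CPM in K1, K2 and K3, against 1.43, 0.699 and 0.616 CPM in C1, C2 and C3 (35.5-fold higher, edgeR adjusted p = 5.82e-04). Kcnj11 and Abcc8 were thus both higher, and per length Kcnj11 had a mean of 0.310 CPM per kb in knockout-labelled and 0.0102 CPM per kb in control-labelled libraries, while Abcc8 had 4.03 CPM per kb in knockout-labelled and 0.113 CPM per kb in control-labelled ones. Kcnj13 (Kir7.1) had 7.79, 9.58 and 8.25 CPM in K1, K2 and K3 and 10.9, 14.6 and 9.10 CPM in C1, C2 and C3, with overlapping groups (edgeR adjusted p = 0.418). Of its exon bases 49.1% lie under exons of Gigyf2 on the other strand, which had 185 to 194 CPM in knockout-labelled and 195 to 219 CPM in control-labelled libraries, and the reads of these shared bases cannot be told apart if counting ignored the strand. The Kcnj11 call was lost without any library but C1 (edgeR adjusted p = 0.0834 to 0.143), and the Kcnj2 call without C1, C2, C3 or K1 (0.0737 to 0.0923). Without C2, C3, K1, K2 or K3, 1 inward rectifier was higher, and without C1, C2, C3 or K1, 1 was lower.

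Two-pore channels changed in both directions. Of 14 listed 6 were tested, 1 was higher, 1 was lower and 4 did not pass, with a median log2 fold change of 0.28. Kcnk2 encodes TREK-1, a leak channel gated by membrane stretch. It had 8.97, 13.5 and 14.3 CPM in K1, K2 and K3, against 30.5, 25 and 42.2 CPM in C1, C2 and C3, without overlap. The log2 fold change was -1.41 ± 0.29 (SE, edgeR adjusted p = 0.0171). Kcnk5 (TASK-2), a leak channel opened by alkaline pH, had 5.50, 4.89 and 5.26 CPM in K1, K2 and K3, against 1.20, 2.01 and 1.33 CPM in C1, C2 and C3 (3.44-fold higher, edgeR adjusted p = 0.0365). Kcnk1 (TWIK-1) had the highest level per length of all members in the knockout-labelled libraries, at 20.3 CPM per kb, against 11.4 CPM per kb in the control-labelled ones. It had 46.8, 51.0 and 38.2 CPM in K1, K2 and K3 and 20.3, 36.6 and 19.5 CPM in C1, C2 and C3, without overlap. Kcnk6 (TWIK-2) had 23.5, 23.3 and 26.0 CPM in K1, K2 and K3 and 7.31, 17.3 and 14.1 CPM in C1, C2 and C3, also without overlap. Neither passed, with log2 fold changes of 0.83 and 0.91 (edgeR adjusted p = 0.107 and 0.117), though Kcnk1 passed without C2 (0.0340). The Kcnk2 call was lost without C3 or K2 (edgeR adjusted p = 0.0566 to 0.0764) and the Kcnk5 call without any 1 of the 6 libraries (0.0571 to 0.123). Without C1, C3, K1, K2 or K3, 0 two-pore channels were higher, without C2 the 1 higher gene was Kcnk1, and without C3 or K2, 0 were lower.

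Calcium-activated and Slo-type channels were higher where they were called. Of 12 listed 8 were tested, 4 were higher, 0 were lower and 4 did not pass, with a median log2 fold change of 2.52. The higher genes Kcnmb4 and Kcnt1 passed the count filter through the knockout-labelled libraries alone. At an unadjusted p under 0.05 edgeR found 0 lower, and DESeq2 and limma-voom called 0 lower. Kcnma1 encodes the pore of the large-conductance BK channel, opened by calcium and voltage together. It had 21.2, 24.0 and 18.8 CPM in K1, K2 and K3, against 1.28, 1.05 and 1.40 CPM in C1, C2 and C3. Replicates lay close together in both groups, and the fold change was 17.1 (log2 4.09 ± 0.30, SE, edgeR adjusted p = 3.80e-04). Kcnmb4, the BK accessory subunit of neurons, had 2.15, 1.34 and 2.86 CPM in K1, K2 and K3, against 0.300, 0.306 and 0.239 CPM in C1, C2 and C3 (7.43-fold higher, edgeR adjusted p = 0.0305). Kcnmb1, the BK subunit of smooth muscle, overlapped between groups at a log2 fold change of -0.05 (edgeR adjusted p = 0.985). Kcnn3 (SK3), a small-conductance channel opened by calcium through calmodulin, had 24.1, 9.58 and 14.1 CPM in K1, K2 and K3, against 2.25, 4.50 and 3.25 CPM in C1, C2 and C3 (4.78-fold higher, edgeR adjusted p = 0.0136). Kcnn4, the intermediate-conductance channel, was high in 1 library, with 17.8, 1.80 and 1.40 CPM in K1, K2 and K3 and 0.188, 1.09 and 1.74 CPM in C1, C2 and C3. Its log2 fold change was 2.79 (edgeR adjusted p = 0.165) and 0.66 without K1 (0.720). Kcnt1 (Slack), a relative opened by sodium, had 71, 16 and 29 counts in K1, K2 and K3 and 3, 0 and 3 counts in C1, C2 and C3 (edgeR adjusted p = 0.0405). Antisense transcripts share 355 bases (Kcnmb4os1) and 693 bases (Kcnmb4os2) with Kcnmb4 exons. They were low, with Kcnmb4os2 at 0.831, 0.721 and 0.325 CPM in K1, K2 and K3 and 0.225, 0.787 and 0.103 CPM in C1, C2 and C3. The Kcnmb4 and Kcnt1 calls were lost without any 1 of the 6 libraries (edgeR adjusted p = 0.0563 to 0.125 and 0.0843 to 0.124), and the Kcnn3 call without C3 (0.0554). The 4 higher genes became 1 without C3 and 2 without any other library.

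Per length, the make-up of the potassium channel transcripts differed between the groups. Summed over all 91 members, levels were 101, 116 and 118 CPM per kb in K1, K2 and K3 and 79.6, 94.3 and 73.1 CPM per kb in C1, C2 and C3. Voltage-gated alpha subunits made up 38.0, 34.4 and 37.7% of this in K1, K2 and K3, against 9.66, 11.4 and 11.9% in C1, C2 and C3. Inward rectifiers made up 12.1, 20.6 and 20.6% in K1, K2 and K3, against 54.7, 50.1 and 40.3% in C1, C2 and C3. Neither share overlapped between groups. Kcna1 alone held 11.7, 15.3 and 16.0% in K1, K2 and K3, against 0.976, 1.15 and 0.842% in C1, C2 and C3. Kcnj15 alone held 2.23, 11.6 and 11.5% in K1, K2 and K3, against 37.8, 27.2 and 22.7% in C1, C2 and C3. Two-pore channels held 27.2 to 31.8% in the knockout-labelled and 27.0 to 34.0% in the control-labelled libraries, which overlapped. The inward rectifier sum includes Kcnj13, at 6.13, 7.54 and 6.50 CPM per kb in K1, K2 and K3 and 8.57, 11.5 and 7.16 CPM per kb in C1, C2 and C3. Since 49.1% of its exon bases lie under Gigyf2, part of this may be Gigyf2 reads, and the shares were not computed without it. All shares come from the same libraries as the calls above and were not tested.

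**Figure D3:**
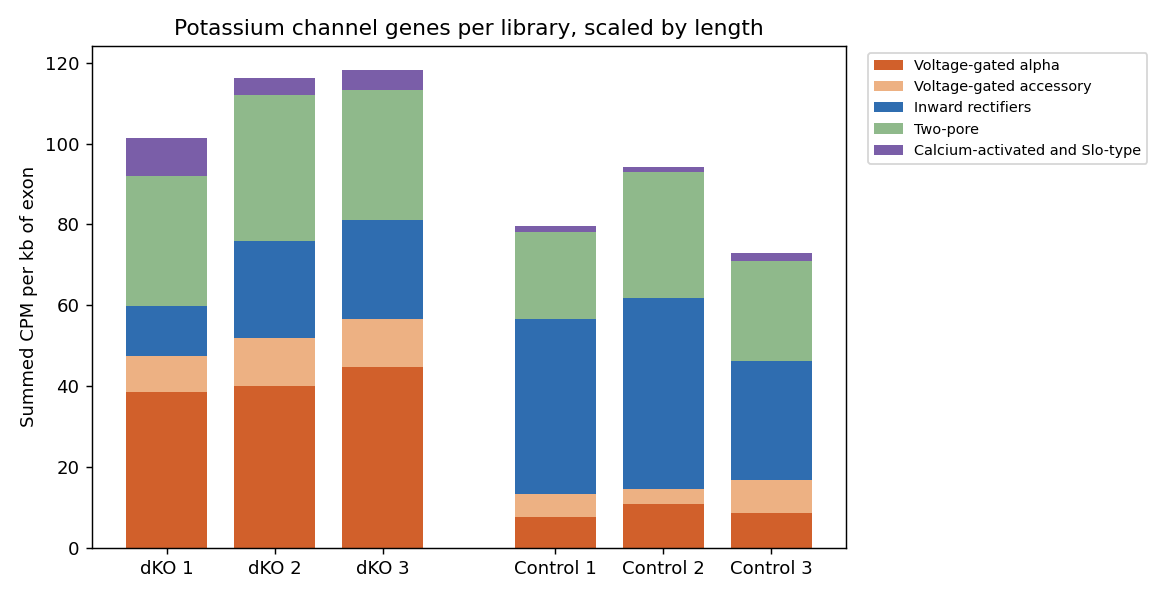
Summed level of the potassium channel genes in each library, in CPM per kb of exon, stacked by class, with the 3 knockout-labelled libraries (dKO) left of the 3 control-labelled ones. The orange part (voltage-gated alpha subunits) spans 38.5 to 44.6 CPM per kb in the knockout-labelled and 7.69 to 10.8 CPM per kb in the control-labelled libraries, and the blue part (inward rectifiers) 12.3 to 24.3 CPM per kb in the knockout-labelled and 29.4 to 47.2 CPM per kb in the control-labelled libraries. The blue part includes Kcnj13, whose counts may hold reads of Gigyf2.

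**Figure D4:**
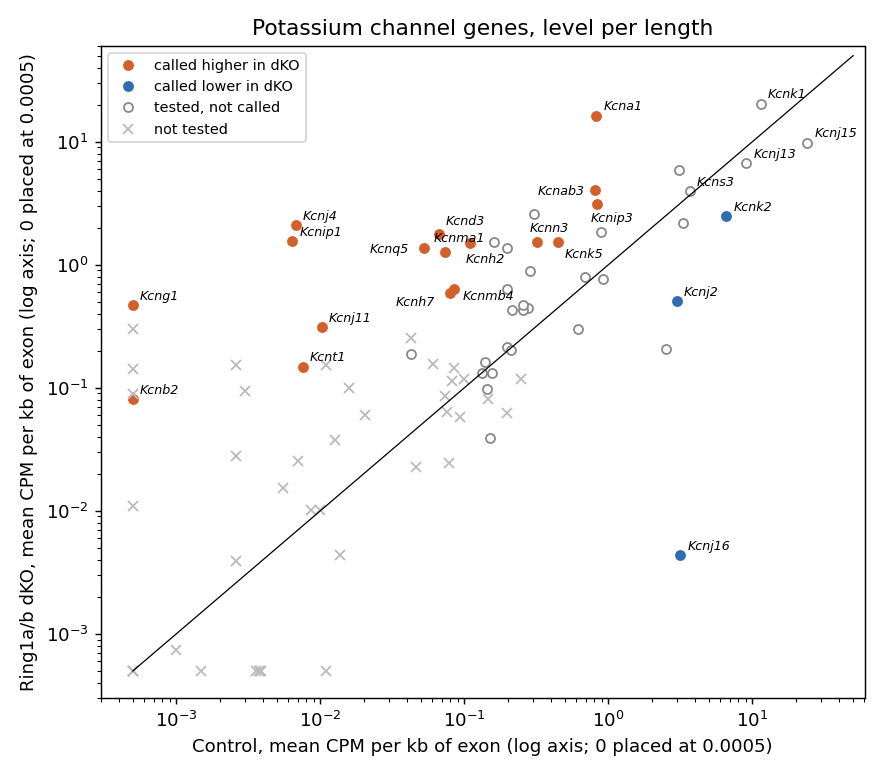
Mean level per length of 89 of the 91 members, in CPM per kb of exon on log axes, in knockout-labelled (vertical) against control-labelled libraries (horizontal), with a line of equal level and 0 placed at 0.0005. Called genes are filled, tested genes without a call are open circles and untested ones are crosses. Kcna1 lies far above the line at 16.2 CPM per kb in knockout-labelled and 0.824 CPM per kb in control-labelled libraries, and Kcnj16 far below it at 0.00436 CPM per kb in knockout-labelled and 3.14 CPM per kb in control-labelled libraries.

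The 41 members that were not tested had at most 80 counts in any library and at most 109 in all 6. Of these, 4 had no count anywhere, 4 were counted in knockout-labelled libraries alone, 6 in control-labelled libraries alone and 27 in both. In number, 47 to 55 members had at least 10 counts in a knockout-labelled library and 37 to 44 in a control-labelled one.

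Other genes of potassium transport changed at about the background share. Of 54 genes listed for work beside the channels (partner subunits, pumps, exchangers and cation channels), 28 were tested, 3 were higher, 0 were lower and 25 did not pass, 10.7% beside 10.2% of all genes. At an unadjusted p under 0.05 edgeR found 6 higher and 3 lower. DESeq2 called 6 higher and 2 lower, and limma-voom 4 higher and 0 lower. The median log2 fold change was 0.04. The higher genes were Abcc8, Atp1b1 and Hcn4. Atp1b1, a beta subunit of the sodium-potassium pump, had 47.4, 40.3 and 50.8 CPM in K1, K2 and K3, against 7.58, 11.2 and 6.88 CPM in C1, C2 and C3 (5.40-fold higher, edgeR adjusted p = 0.00115). Hcn4, a pacemaker cation channel of the heart, had 0.727, 1.08 and 2.24 CPM in K1, K2 and K3, against 0.0375, 0.0437 and 0.103 CPM in C1, C2 and C3 (edgeR adjusted p = 0.0209). With 1, 1 and 3 counts in C1, C2 and C3, Hcn4 passed the count filter through the knockout-labelled libraries alone. The 10.7% thus includes a gene that could hardly be called lower. The Abcc8 and Atp1b1 calls held whichever library was left out, while the Hcn4 call was lost without any library but K1 (highest edgeR adjusted p = 0.102).

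PRC1 is known to sit at promoters rich in CG dinucleotides, many of them of silent developmental genes. Promoter windows of RefSeq (GRCm38.p6, 250 bases before to 50 after a start) were at hand for 67 of the 91 members and 14 of the 22 called ones. These were 11 of the 19 higher, 3 of the 3 lower and 22 of the 28 uncalled tested members, too few of the higher ones for a comparison of the groups. CG, a motif that reads the same on both strands, occurred at least once in 94.6% and at least 10 times in 43.5% of all 32851 RefSeq windows. By the richest window of each gene, 81.6% of all tested genes with a window had at least 10 CG. The richest windows of the higher members held 11 to 48 CG and those of the lower members 8 to 33 CG. Single windows are given as a description, and binding was not measured.

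The CG-poorest and the CG-richest of the higher members with a window and all 3 lower members are printed, so that the spread within each direction can be seen, each 5′ to 3′ on the gene's strand with CG in capitals. Kcnn3 (chr3:89519914-89520213, plus strand, 11 CG) and Kcnmb4 (chr10:116473474-116473773, minus strand, 48 CG) are the higher genes. Kcnj16 (chr11:110997237-110997536, plus strand, 8 CG, the richest of its 4 windows), Kcnj2 (chr11:111065914-111066213, plus strand, 18 CG) and Kcnk2 (chr1:189343658-189343957, minus strand, 33 CG, among the richest of its 4 windows) are the lower genes.
Kcnn3: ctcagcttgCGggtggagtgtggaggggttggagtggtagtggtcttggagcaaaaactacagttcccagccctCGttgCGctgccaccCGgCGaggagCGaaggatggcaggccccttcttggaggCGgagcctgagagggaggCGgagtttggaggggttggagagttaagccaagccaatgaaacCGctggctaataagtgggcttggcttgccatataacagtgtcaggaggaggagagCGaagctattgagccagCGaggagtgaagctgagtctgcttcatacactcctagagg
Kcnmb4: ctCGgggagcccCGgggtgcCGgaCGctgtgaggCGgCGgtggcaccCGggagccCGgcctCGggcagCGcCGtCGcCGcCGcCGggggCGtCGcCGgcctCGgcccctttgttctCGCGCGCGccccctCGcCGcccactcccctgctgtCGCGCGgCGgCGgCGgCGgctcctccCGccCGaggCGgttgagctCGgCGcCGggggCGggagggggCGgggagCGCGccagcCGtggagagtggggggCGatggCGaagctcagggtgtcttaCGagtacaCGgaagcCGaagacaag
Kcnj16: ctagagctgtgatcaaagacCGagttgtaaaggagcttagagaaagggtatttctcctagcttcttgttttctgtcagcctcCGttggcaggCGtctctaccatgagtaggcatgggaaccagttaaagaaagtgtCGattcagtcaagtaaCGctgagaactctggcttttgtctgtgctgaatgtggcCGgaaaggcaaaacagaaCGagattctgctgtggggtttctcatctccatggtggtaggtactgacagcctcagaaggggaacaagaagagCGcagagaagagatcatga
Kcnj2: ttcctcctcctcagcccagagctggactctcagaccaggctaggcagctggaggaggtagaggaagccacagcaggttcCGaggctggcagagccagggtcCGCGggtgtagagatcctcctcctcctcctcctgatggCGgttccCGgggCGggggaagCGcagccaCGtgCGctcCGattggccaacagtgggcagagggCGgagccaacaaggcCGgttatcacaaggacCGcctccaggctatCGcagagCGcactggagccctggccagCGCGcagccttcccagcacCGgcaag
Kcnk2: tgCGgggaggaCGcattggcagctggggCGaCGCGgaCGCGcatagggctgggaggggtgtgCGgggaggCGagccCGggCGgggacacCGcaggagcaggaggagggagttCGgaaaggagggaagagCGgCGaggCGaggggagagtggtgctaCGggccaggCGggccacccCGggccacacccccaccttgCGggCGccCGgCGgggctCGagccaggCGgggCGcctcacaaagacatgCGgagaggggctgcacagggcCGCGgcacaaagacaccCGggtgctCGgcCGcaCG

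Some markers of other cell types moved with the labels. Of all genes tested, 7.17% were called higher and 2.98% lower. Of 6 Merkel cell markers 3 were tested, and these 3 were higher (Isl1, Krt18 and Sox2). Isl1 and Sox2 passed the count filter through the knockout-labelled libraries alone and so could hardly be called lower. The sum of all 6 was 27.6 to 77.0 CPM in knockout-labelled and 0.612 to 2.63 CPM in control-labelled libraries. Most of the knockout-labelled sum was Krt18, at 67.5, 25.4 and 19.8 CPM in K1, K2 and K3. Krt8 and Krt20 were not tested, and their groups overlapped. The defining Atoh1 had at most 0.154 CPM in a knockout-labelled and 0.342 CPM in a control-labelled library, and Isl1 and Sox2 had 0 counts in the control-labelled ones. Of 5 neuron markers 3 were tested and 1 was higher (Tubb3). With 3, 3 and 5 counts in C1, C2 and C3, Tubb3 passed the count filter through the knockout-labelled libraries alone. The sum of all 5, which overlapped, was 3.12 to 12.2 CPM in knockout-labelled and 0.450 to 3.23 CPM in control-labelled libraries. Syt1 and Elavl4 had at most 0.206 CPM in a knockout-labelled and 0.437 CPM in a control-labelled library. Of 5 inner root sheath markers 4 were tested and 3 were lower (Krt25, Krt27 and Krt71). Krt25 had 0 counts in K1, K2 and K3 and passed the count filter through the control-labelled libraries alone. Sums over all 5 were 24.3 to 31.2 CPM in knockout-labelled and 36.2 to 80.9 CPM in control-labelled libraries. Most of each sum was Tchh, which was not called and overlapped between groups. It had 30.6, 25.8 and 23.5 CPM in K1, K2 and K3 and 32.5, 50.2 and 26.3 CPM in C1, C2 and C3. No marker was called in the lists for melanocytes, glia, suprabasal layers, muscle, fibroblasts, endothelium, immune cells or red cells. Some of these markers were not tested and so could not be called. Tested were 4 of 6 melanocyte, 4 of 5 suprabasal, 3 of 5 skeletal muscle and 2 of 4 smooth muscle markers. So were 3 of 5 immune cell and 1 of 3 red cell markers. Melanocyte markers nevertheless summed to 16.1 to 25.6 CPM in knockout-labelled and 12.5 to 15.0 CPM in control-labelled libraries, without overlap, with Tyrp1 at 1.18, 0.721 and 2.47 CPM in K1, K2 and K3 and 0.225, 0 and 0.0342 CPM in C1, C2 and C3 (edgeR adjusted p = 0.0651). Dct had 5.12, 2.32 and 5.36 CPM in K1, K2 and K3 and 2.10, 0.874 and 1.40 CPM in C1, C2 and C3 (edgeR adjusted p = 0.128). The remaining melanocyte markers Pmel, Mitf, Tyr and Mlana overlapped between groups. Pmel, the highest of the list, had 10.2, 7.05 and 11.4 CPM in K1, K2 and K3 and 7.24, 9.27 and 7.18 CPM in C1, C2 and C3. The smooth muscle marker Acta2 had 26.6, 7.98 and 7.67 CPM in K1, K2 and K3 and 4.88, 2.05 and 1.47 CPM in C1, C2 and C3, also without overlap (edgeR adjusted p = 0.0542). Cnn1 in the same list went the other way without overlap but was not tested. It had 0, 2 and 1 counts in K1, K2 and K3 and 8, 6 and 19 in C1, C2 and C3. Myh11 and Des, also smooth muscle markers, overlapped between groups. The part of these cell types in the higher and the lower potassium channel genes was not tested, and in such bulk libraries fewer cells of a type and less RNA per cell cannot be told apart.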

How the data were processed

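Per the labels' protocols, 10 ng of RNA from sorted cells went through Nugen Ovation V2 amplification, and sequencing gave single 100-nucleotide reads. The deposited files hold the authors' raw counts per gene symbol, 1 file per library. The submitters' processing notes name the build mm10 and the tools HTSeq 0.6.1, TopHat2 2.0.13, DESeq2 1.6.3 and Cufflinks 2.2.1 without assigning steps. The annotation and the strand of counting are not given in the sources used here.

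From 24453 symbols the count table was fitted with edgeR 4.0.16 in R 4.3.3: filterByExpr (minimum count 10, minimum total 15), TMM factors (0.927 to 1.04), a two-sided quasi-likelihood F test without covariates and Benjamini-Hochberg adjustment over 14890 genes, threshold 0.05. SE are the absolute log2 fold change over the root of F. Per library, 18951665 to 31187270 counts set the precision. A fold against a group at 0 counts is a bound that sets the group's sum at 3, and for sums of 1 to 3 the ratio of counts has an exact 95% interval. Lengths and positions are from GENCODE M21 (GRCm38), which matched 91 members. The fits were tested on simulated counts.

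Named are all called members, the 3 with the highest mean CPM of each class, members with 0 counts in 1 group and at least 10 in each library of the other, uncalled members without overlap at an absolute log2 fold change of 2 or more, and at most 4 called transport genes per direction. Some genes that this rule names are counted in all totals but are not reported here by name. Their relatives, partners and neighbours were picked with the values known. Members and lists were chosen with earlier results of these data known. No pair of libraries matched within sampling noise (smallest chi-square per degree of freedom 30.5). Alternatives were other scaling (DESeq2 1.42.0 size factors, library size), filters, DESeq2, limma-voom (limma 3.58.1), a replicate block, the Xist level as covariate, an offset for GC content and length (known for 97.8% of genes), a 2-fold minimum, and left-out libraries. Figures used matplotlib 3.10.9.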

Additional observations from a re-analysis of the deposited data

How the results depend on the processing

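The main analysis called 19 members higher, 3 lower and 1512 genes in all. Scaling by DESeq2 size factors and the 2-fold minimum called the same 22 members, and none of the 22 turned its direction in any alternative in which it was tested. With 50 counts in 3 libraries as the filter, 5 of the 22 were not tested. Counts of all genes moved to 813 with the Xist covariate, 2561 with DESeq2 and 439 with replicates 1 and 2 alone, and to 811 to 1393 with 1 library left out. Members higher were 7 with replicates 1 and 2 alone, 11 with the Xist covariate and 11 to 16 with 1 library left out, while 1 to 3 were then lower. Voltage-gated alpha subunits higher (9) were 14 with DESeq2 and 4 with replicates 1 and 2 alone, and 7 to 10 with 1 library left out. Accessory subunits higher (3) were 1 with replicates 1 and 2 alone or the Xist covariate, and 1 to 2 with 1 library left out. Accessory subunits lower (0) were 1 with library size only, no count filter, the Xist covariate or DESeq2 (Kcne4 each time), and 0 to 1 with 1 library left out. Inward rectifiers higher (2) were 1 without a count filter, with the filter of 50 counts, the Xist covariate, the GC and length offset and replicates 1 and 2 alone, and 1 to 2 with 1 library left out. Inward rectifiers lower (2) were 1 with the Xist covariate and 1 to 2 with 1 library left out. Two-pore channels higher (1) were 0 with the Xist covariate, the GC and length offset and replicates 1 and 2 alone, and 0 to 1 with 1 library left out. Two-pore channels lower (1) were 0 with replicates 1 and 2 alone, and 0 to 1 with 1 library left out. Calcium-activated channels higher (4) were 2 with the filter of 50 counts, the Xist covariate and limma-voom, 1 with replicates 1 and 2 alone, and 1 to 2 with 1 library left out. The cause of these shifts was not tested, apart from fewer members tested under the stricter filter and fewer libraries where some were left out. With replicates 1 and 2 alone the labels cannot be told apart from the sex-linked transcripts Xist and Ddx3y.

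The replicate numbers share no stated source. Deviations of same-numbered libraries correlated at 0.175, 0.228 and 0.0773, and each library correlated best with its own number, a hint from the data and not the design. With the replicate block 1451 genes, 14 members higher and 3 lower were called, and 1 inward rectifier, 0 two-pore and 2 calcium-activated channels were higher. Kcnb2, Kcnj11, Kcnk5, Kcnmb4 and Kcnt1 then missed the threshold (edgeR adjusted p = 0.0531 to 0.0716).

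Depth limits what can be said of low members: the 41 untested ones had at most 109 counts over all 6 libraries, and a call that was missed there or elsewhere does not show an equal level.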

Other observations

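Several little-counted members were high in 1 library or in both libraries with the same replicate number. Kcnf1, a silent partner of Kv2 channels, had 55, 4 and 3 counts in K1, K2 and K3 and 1, 0 and 0 in C1, C2 and C3. Though K1 held most of its counts, its groups did not overlap. Kcnf1 was too low for the main filter and was called by DESeq2. The leak channel Kcnk3 had 51, 0 and 2 counts in K1, K2 and K3 and 0, 3 and 0 in C1, C2 and C3, and Kcnk13 had 58, 1 and 9 counts in K1, K2 and K3 and 3, 1 and 7 in C1, C2 and C3. Kcna6 was counted in K1 (80) and C1 (29) and in no other library. Kcng2 had 23, 2 and 5 counts in K1, K2 and K3 and 57, 0 and 2 in C1, C2 and C3. In all, 4 members were higher in both K1 and C1 than in the other 4 libraries, 2 in both K2 and C2 and 3 in both K3 and C3, counting members with at least 10 counts in 1 of the pair. These genes were chosen after their values were seen.

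Kcns1, a silent partner of Kv2 channels, had 44, 5 and 20 counts in K1, K2 and K3 and 0 in C1, C2 and C3. It was too low for the main filter and was called by DESeq2 and without a count filter.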
